A study of Caenorhabditis elegans with 12 samples.

Results

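Total small RNAs (sRNAs) were compared between 3×FG and WT young adult *Caenorhabditis elegans* in the input libraries, made from whole-worm lysate before the WAGO-4 immunoprecipitation (IP). The unit of description is the feature, a gene or repeat together with its annotation class, with reads from the strand opposite the gene counted as a separate antisense feature. All 63014 features of the count matrix were taken, with the reads that matched no feature left out, and 6 of the 12 libraries of the series are inputs. The 3×FG worms (strain SS142, 3 libraries) carry phenylalanine-to-alanine changes in the FG repeats of *glh-1* and *glh-4*, alleles allele50 and allele16, and a deletion of the *glh-2* FG repeats, allele49. The WT worms (strain YY1325, 3 libraries) lack these edits. Both strains carry *wago-4* tagged with 3xFLAG and GFP at its own locus (allele gg620), so the controls are not untagged N2 worms. Both were grown at 20 °C, and each strain is a single line. Of the 63014 features, 58059 are in neither of the deposited WAGO-4 target tables (WT or 3×FG), and 14194 of these were among the 19120 features tested. Those tables were made from IP and input values of the same animals, so membership is not independent of the input level.

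Most *C. elegans* small RNAs belong to a few pathways. MicroRNAs (miRNAs) are cut from hairpins and repress mRNAs, piRNAs are genomically encoded germline sRNAs bound by the Argonaute PRG-1, and 22G-RNAs are made antisense to mRNAs by RNA-dependent RNA polymerases and are bound by Argonautes such as WAGO-4, HRDE-1 and CSR-1. The GLH proteins edited here are Vasa-related RNA helicases of the P granule, the germ granule that lies at nuclear pores, and their FG repeats resemble those of nucleoporins. The input library holds all of these sRNAs, from germline and soma, whether or not WAGO-4 binds them. In such whole-animal libraries, fewer cells of a type and less sRNA per cell cannot be told apart.

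The libraries differed in depth and in labelled batch. The 3×FG inputs held 78826261, 45860107 and 11890545 reads and the WT inputs 2208475, 5200665 and 20006273 reads, of which 4.58% to 6.14% matched no feature. All 3×FG inputs and WT input 3 carry the batch label B, and WT inputs 1 and 2 carry A. Across features, WT input 3 correlated with the 3×FG inputs at r = 0.90 to 0.92 on the log2(CPM + 1) scale (CPM, read counts scaled to library size), against 0.76 and 0.81 with WT inputs 1 and 2, which correlated with each other at 0.95. Batch A contains WT alone, so in WT inputs 1 and 2 genotype and batch cannot be told apart, and results are also given with WT input 3 as the only WT library. That comparison has a single WT library, which is assumed to vary like the 3×FG libraries.

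Among the classes that differed between the WT inputs of batches A and B were rRNA fragments, sense fragments of mRNAs and piRNAs. Fragments of rRNA took 20.3%, 16.8% and 15.9% of counted reads in the 3×FG inputs, against 3.39%, 5.26% and 21.2% in the WT inputs. Sense reads of protein-coding genes took 5.17%, 4.43% and 4.33% in 3×FG and 1.89%, 1.97% and 5.39% in WT. The piRNA share was 0.702%, 0.744% and 1.04% in 3×FG and 2.34%, 1.67% and 0.499% in WT. In each of the 3 classes the 3×FG inputs lay between WT input 3 and the batch A pair, so the mean difference has the opposite sign when WT input 3 stands alone. The sign also changed for reads antisense to protein-coding genes, miRNAs, tRNAs, ncRNAs and reads antisense to repeats, which took 6.39%, 6.96% and 6.78% in 3×FG, against 8.99% and 8.34% in WT inputs 1 and 2 and 6.32% in WT input 3. Sense fragments of mRNA from intestine and muscle followed the same split. The summed sense reads of 5 yolk genes were 4108, 3049 and 3118 CPM in 3×FG and 51.7, 92.6 and 4284 CPM in WT.

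In 6 smaller classes reads had a lower share in every 3×FG input than in any WT input, WT input 3 included. Reads antisense to pseudogenes took 5.11%, 5.38% and 5.41% in 3×FG and 7.77%, 7.87% and 6.34% in WT. Reads antisense to non-coding RNA genes took 0.903%, 0.931% and 0.921% in 3×FG, against 1.18%, 1.19% and 1.17% in WT. In shares of all counted reads this was the tightest separation (0.918% ± 0.0142 and 1.18% ± 0.0129, SD, n = 3 each). With rRNA reads left out the WT shares spread more, at 1.219%, 1.257% and 1.478%, against 1.132%, 1.118% and 1.095% in 3×FG. Reads antisense to lincRNA genes took 1.61%, 1.87% and 1.69% in 3×FG and 2.56%, 2.56% and 1.90% in WT. The same order was seen for sense reads of pseudogenes, sense reads of repeats, and small nuclear RNAs (0.106%, 0.0894% and 0.127% in 3×FG, against 0.195%, 0.283% and 0.240% in WT). With 3 libraries a genotype a two-sided exact permutation test cannot go below p = 0.1, which each of these 6 classes reached (adjusted p = 0.233 over 14 classes). The main class, antisense to protein-coding genes, took 33.8%, 36.2% and 40.2% in 3×FG and 37.7%, 39.2% and 33.4% in WT, and miRNAs took 23.6%, 24.9% and 21.3% in 3×FG and 31.7%, 28.1% and 21.5% in WT. Both overlapped between genotypes.

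**Figure D1:**
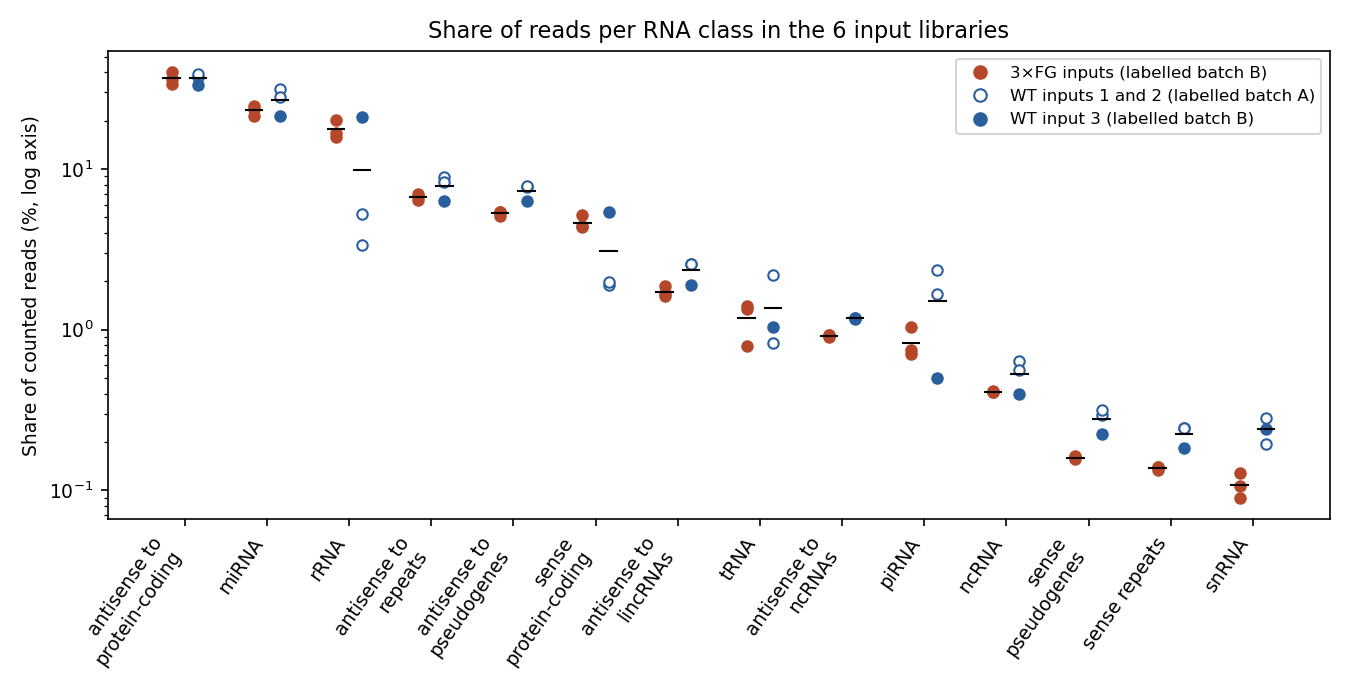
Percent of counted reads (log axis) in 14 annotation classes for each of the 6 input libraries, with 3×FG left and WT right in each class, horizontal bars for the mean of 3 libraries and open circles for WT inputs 1 and 2 of batch A. For rRNA the 3×FG inputs lie at 15.9% to 20.3%, near WT input 3 at 21.2% and far from the open circles, whereas for reads antisense to ncRNAs all 3×FG inputs lie below all 3 WT inputs.

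Feature by feature, more calls were lower than higher in 3×FG, although 11545 of the 19120 features tested had a positive fold change and 7575 a negative one. A feature was called at a Benjamini-Hochberg adjusted p below 0.01 in edgeR's quasi-likelihood test and a log2 fold change beyond 1, after CPM were scaled by the trimmed mean of M values (TMM). Of the 19120 features tested, 537 (2.81%) were called lower and 278 (1.45%) higher in 3×FG. Among the 14194 in neither target table, 474 (3.34%) were lower and 207 (1.46%) higher. The lower ones took 2.31%, 2.21% and 2.31% of reads in 3×FG, against 7.52%, 8.07% and 6.34% in WT. The higher ones took 2.07%, 2.23% and 2.42% in 3×FG, against 0.539%, 0.544% and 0.477% in WT. All 474 and all 207 separated the genotypes without overlap, as did 16.7% of all tested features on the lower side and 21.6% on the higher side. These 474 and 207 features kept their sign with batch as a term in the model. They also kept it with WT input 3 alone, which follows from the lack of overlap.

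With WT input 3 as the only WT library, 832 features (4.35%) were lower and 763 (3.99%) higher in 3×FG, and 442 of the 474 lower and 200 of the 207 higher features in neither table were called again. With WT inputs 1 and 2 alone 3046 were lower and 3255 higher, and 442 of the 474 and 188 of the 207 were called the same way against either set of WT libraries. Both comparisons use the same 3×FG libraries, and their WT libraries also entered the main calls. The called features moved by a median log2 fold change of -2.21 (lower) and 2.18 (higher), beside 0.25 over all features in neither table, and 286 and 120 of them changed by more than 2 on the log2 scale. The number of calls depended on each library. In neither table, 0, 13 and 1 features were called lower and 2, 14 and 7 higher without 3×FG replicate 1, 2 or 3 in turn, so higher calls outnumbered lower ones in these 3 fits. There were 130 and 32 lower and 39 and 17 higher without WT replicate 1 or 2, and 2686 lower and 3077 higher without WT replicate 3. DESeq2 called 1685 lower and 727 higher over all features. When libraries were scaled by their totals without rRNA, 384 of all features were lower and 366 higher, so the share of higher calls was 48.8%, against 34.1% with TMM, and the median of all features was 0.43 in place of 0.24.

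**Figure D2:**
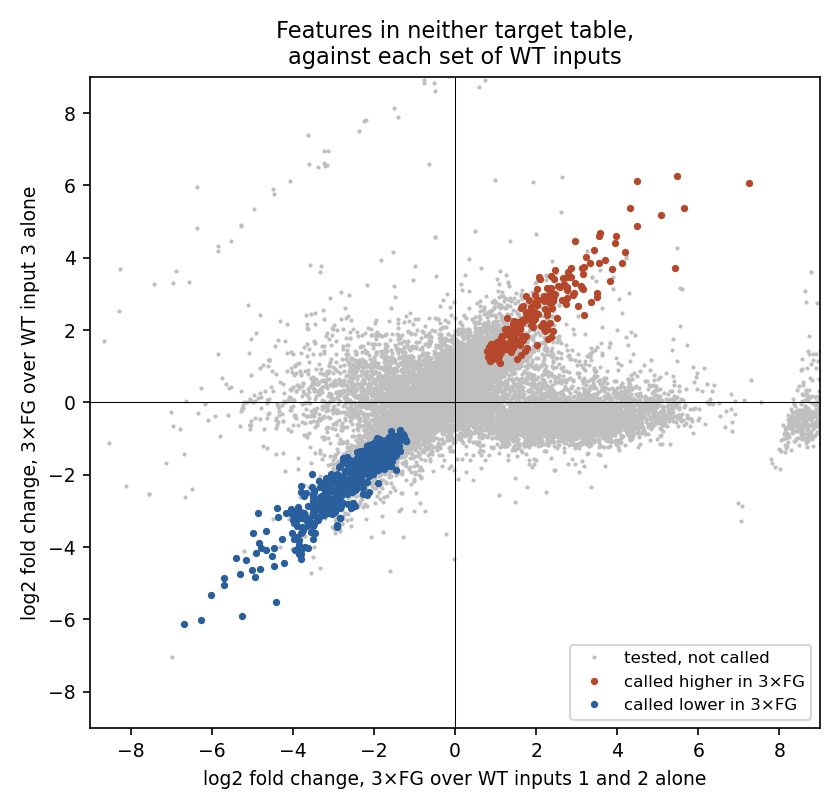
Log2 fold change of the 14194 tested features in neither target table, 3×FG over WT inputs 1 and 2 alone (x axis) and over WT input 3 alone (y axis), with 293 points beyond the axes not drawn. The 474 features called lower (blue) and the 207 called higher (red) lie along the diagonal on one side of 0 on both axes, while many grey features that differ only against WT inputs 1 and 2 lie along the horizontal line. The same 3×FG libraries enter both axes, and the calls used the WT libraries of both axes, so the axes are not an independent check of the calls.

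The features with the lowest ratios had almost no reads in 3×FG. Antisense reads of *ins-17*, which encodes an insulin-like peptide (chromosome III, 4476918 to 4477572, WBcel235), stood at 0.836, 0.845 and 0.626 CPM in 3×FG, against 50.1, 56.7 and 52.2 CPM in WT. All 3×FG libraries were under 1 CPM and the WT libraries of both batches were alike, a 68.9-fold lower mean (log2 fold change -6.07, SE 0.20, adjusted p = 0.00023). Antisense reads of *Y53F4B.12* (chromosome II, 15019223 to 15025782) were 1.79, 1.78 and 1.64 CPM in 3×FG and 101, 96.3 and 70.9 CPM in WT (log2 fold change -5.67, adjusted p = 0.000302). *K07C5.13* (chromosome V, 10342055 to 10342938) had 5.73, 3.72 and 3.21 CPM antisense in 3×FG and 182, 209 and 145 CPM in WT (-5.39, adjusted p = 0.000633). None of these overlapped between genotypes, which the rule for naming them required. Antisense reads of a simple tandem repeat (log2 fold change -5.36), *ZC239.21* (-5.32), *Y44E3A.1* (-5.13), the pseudogene *F56B3.3* (-4.96) and *ZK673.11* (-4.78) completed the 8 lowest. *Y44E3A.1*, *F56B3.3* and *ZK673.11* overlap other annotated genes.

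At the other end, loci with few reads in WT had many in 3×FG. Antisense reads of *T28D6.4* (chromosome III, 11360456 to 11366198) reached 346, 430 and 324 CPM in 3×FG, against 12.2, 3.96 and 4.82 CPM in WT (log2 fold change 5.84, SE 0.47, adjusted p = 0.00149). *arl-13*, which encodes an Arf-like GTPase of cilia (chromosome I, 2065692 to 2069098), had 132, 146 and 137 CPM antisense in 3×FG and 3.04, 3.75 and 3.89 CPM in WT (5.25, SE 0.16, adjusted p = 0.00023). Here too the WT libraries of both batches agreed closely with each other, and the lowest 3×FG library was far above the highest WT library. The non-coding RNA *Y37E3.26* lies inside *arl-13* on the opposite strand. Its 68.0, 91.0 and 80.6 CPM in 3×FG and 0, 0.626 and 1.21 CPM in WT are thus reads of the same strand of the same locus. The annotated gene *rla-1* also overlaps *arl-13*.

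*xdh-1*, a xanthine dehydrogenase gene, had 110, 122 and 81.3 CPM antisense in 3×FG and 4.56, 4.38 and 2.52 CPM in WT (log2 fold change 4.85, adjusted p = 0.000844). *Y39B6A.41* had 75.5, 80.6 and 53.6 CPM in 3×FG and 1.52, 1.04 and 1.70 CPM in WT (5.58), and the pseudogene *C25D7.2* had 28.6, 30.4 and 37.4 CPM in 3×FG and 2.02, 0.834 and 1.09 CPM in WT (4.76). Each separated the genotypes against either set of WT libraries, which the rule for naming them required. The *xdh-1* gene overlaps many annotated piRNA loci, and *T28D6.4* and *Y39B6A.41* also overlap other annotated genes. A pair of the 8 highest features had 1 or 2 reads in all WT libraries together. The tRNA gene *F18G5.t1* had 1987 reads in the 3×FG libraries and 1 in WT, a pooled ratio of 380 (95% counting interval 68.2 to 15040), and sense reads of *rps-0*, a ribosomal protein gene, numbered 3401 in 3×FG and 2 in WT (pooled ratio 326, interval 90.1 to 2690). These intervals cover counting error only, and reads of tRNA genes with near-identical copies are uncertain. *F18G5.t1* also overlaps another annotated gene. *F18G5.t1* and *rps-0* were among 3 higher features with at least 5 CPM in every 3×FG library and under 1 CPM in every WT library. The reverse held for 11 lower features.

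**Figure D3:**
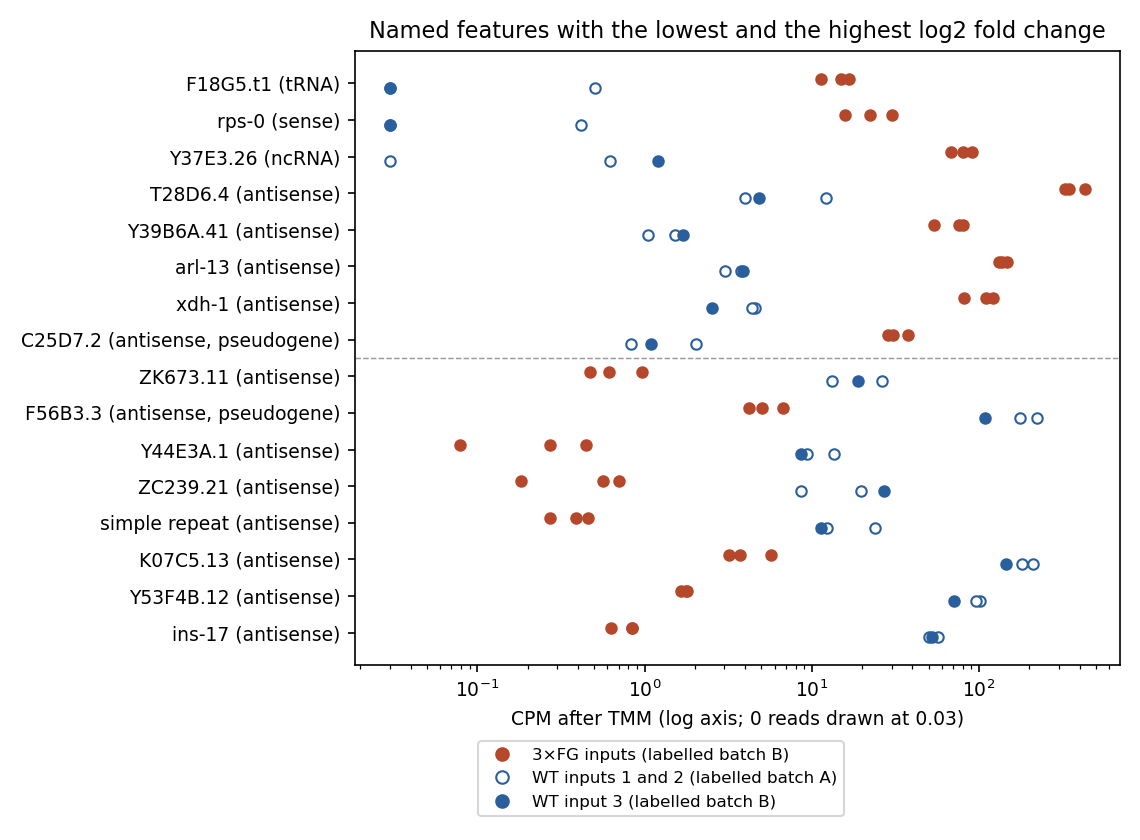
CPM after TMM scaling (log axis, libraries with no reads drawn at 0.03) of the 8 features with the highest (top) and the 8 with the lowest log2 fold change among features in neither target table, with 3×FG points drawn above WT points in each row. The genotypes do not overlap in any row, which the choice of features required. WT input 3 (filled blue) lies with WT inputs 1 and 2 (open), as for *ins-17* at 0.626 to 0.845 CPM in 3×FG and 50.1 to 56.7 CPM in WT.

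The edited genes are themselves sources of antisense sRNAs. Antisense reads of *glh-2* stood at 59.8, 60.7 and 61.4 CPM in 3×FG and 19.2, 23.6 and 25.4 CPM in WT, higher in each 3×FG library although the allele lacks part of the gene (log2 fold change 1.41, SE 0.15, adjusted p = 0.00332). *glh-4* had 473, 537 and 677 CPM in 3×FG and 198, 248 and 334 CPM in WT, also without overlap, and missed the threshold (1.11, SE 0.24, adjusted p = 0.0301). *glh-1* had 278, 317 and 326 CPM in 3×FG and 320, 283 and 273 CPM in WT, which overlapped (0.07, SE 0.12, adjusted p = 0.745). How reads over the edited codons were mapped was not tested. *wago-4*, tagged in both strains, had 213, 242 and 290 CPM antisense in 3×FG and 114, 118 and 130 CPM in WT. It was called higher with all WT libraries (1.04, SE 0.15, adjusted p = 0.00897) but not with WT input 3 alone (0.94) or with WT inputs 1 and 2 alone (0.88).

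Of 17 P and Z granule genes tested in antisense sRNAs, edgeR called 2 (11.8%) higher, *meg-3*, which encodes a scaffold protein of P granules, and *wago-4*, and 0 lower, beside 2.49% higher and 3.87% lower among all 9990 features antisense to protein-coding genes. At an unadjusted p under 0.05, 9 of the 17 were higher and 0 lower. DESeq2 called 1 of them higher and 0 lower, beside 630 higher and 1048 lower of all 9990. The median log2 fold change was 0.68, beside 0.19 for all these features, and 11 of the 17 (64.7%) were higher without overlap between genotypes, beside 32.3%. With WT input 3 alone the median was 0.56 and 1 of the 17 was called. *meg-3* had 22.2, 21.6 and 19.9 CPM in 3×FG and 8.61, 9.18 and 7.06 CPM in WT (1.37, adjusted p = 0.00757). *znfx-1*, a Z granule helicase, had 170, 186 and 222 CPM in 3×FG and 213, 222 and 210 CPM in WT (-0.16, adjusted p = 0.509). Of 18 Argonaute genes edgeR called 1 (5.56%), *wago-4*, higher and 0 lower, while 10 were higher and 0 lower at an unadjusted p under 0.05, and DESeq2 called 2 higher and 0 lower. With WT input 3 alone 3 other Argonaute genes were called higher, *alg-3* (1.70), *alg-4* (1.86) and *wago-10* (2.19). *ppw-2* had 204, 234 and 280 CPM in 3×FG and 120, 117 and 124 CPM in WT and lay just under the fold limit (0.99, adjusted p = 0.00948). The piRNA Argonaute gene *prg-1* (338, 374 and 419 CPM in 3×FG, 313, 307 and 286 CPM in WT) and the nuclear Argonaute gene *hrde-1* were not called by edgeR. None of 21 genes for RNA interference (RNAi) uptake and amplification was called by edgeR, among them *sid-1*, the double-stranded RNA channel (767, 761 and 665 CPM in 3×FG, 527, 570 and 539 CPM in WT, adjusted p = 0.0642). Of these 21, 1 was lower and 12 higher at an unadjusted p under 0.05 in edgeR, against 5908 of all 19120 features in either direction, and DESeq2 called 0.

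The 6 tested loci known as sources of ERGO-1-class 26G-RNAs, which trigger secondary 22G-RNAs on duplicated genes, all had a negative log2 fold change with all WT libraries (median -0.91). Of these, 1 (16.7%) was called lower, beside 3.87% of all features antisense to protein-coding genes. That locus was *C18D4.6*, with 62.7, 68.0 and 56.7 CPM antisense in 3×FG and 185, 166 and 135 CPM in WT (-1.37, SE 0.16, adjusted p = 0.0049). *K02E2.6*, also a member, had 1487, 1909 and 1601 CPM in 3×FG and 1874, 1839 and 1685 CPM in WT, which overlapped. With WT input 3 alone 5 of the 6 were negative (median -0.74), and *C44B11.6* was positive (0.16). With libraries scaled by totals without rRNA 4 of the 6 were negative (median -0.68).

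F-box genes formed the list with most calls. They encode substrate adaptors of SCF ubiquitin ligases and are a large, fast-evolving family in worms. Of 149 tested F-box genes, 17 (11.4%) were called lower in antisense sRNAs by edgeR and 0 higher, beside 3.87% lower and 2.49% higher among all 9990 features antisense to protein-coding genes. At an unadjusted p under 0.05, 70 were lower and 12 higher. DESeq2 called 45 lower and 2 higher, beside 1048 lower and 630 higher of the 9990 features. The median of the list was -0.67, and 109 members had a negative fold change. All 17 are in neither target table. Of the 149 genes, 13 were called lower with libraries scaled by totals and 10 by totals without rRNA, beside 287 and 274 of the 9990 features. With WT input 3 alone the median of the list was -0.54, beside 0.21 over the 9990 features. The median of the list also stayed negative under each scaling tried.

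Among the F-box genes, *fbxa-150* had 29.2, 24.2 and 21.8 CPM antisense in 3×FG and 232, 215 and 187 CPM in WT, the strongest decrease of the 17 (log2 fold change -3.08, SE 0.17, adjusted p = 0.000627). *fbxb-97* had 302, 263 and 249 CPM in 3×FG and 924, 983 and 661 CPM in WT (-1.66, SE 0.19, adjusted p = 0.00461). *fbxb-91* had 14.9, 7.03 and 11.9 CPM in 3×FG and 52.7, 99.5 and 86.3 CPM in WT (-2.82, adjusted p = 0.0068). No library of one genotype reached the other in these 3 genes. The remaining 14 ran between -1.27 (*fbxc-42*) and -2.66 (*fbxb-45*), and *fbxa-11* and *fbxc-42* were not called with WT input 3 alone. By gene symbol, 9 of 55 *fbxb*, 3 of 26 *fbxc* and 11 of 105 *fbxa* features were lower and 0 higher by edgeR, counting features antisense to pseudogenes too. Against WT input 3 alone 16, 9 and 17 of these were lower, and 6 *fbxa* features were higher.

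MATH and BATH domain genes, whose products include adaptors of CUL-3 ubiquitin ligases, had 3 of 54 (5.56%) called lower and 0 higher by edgeR, beside the 3.87% and 2.49% of all features antisense to protein-coding genes (18 lower and 8 higher at an unadjusted p under 0.05, 8 lower and 2 higher by DESeq2). The median was -0.22, and with libraries scaled without rRNA it came to -0.00 and 1 gene was lower. Against WT input 3 alone 4 were lower and 2 higher. *bath-24* had 228, 227 and 185 CPM antisense in 3×FG and 563, 636 and 458 CPM in WT (-1.37, adjusted p = 0.00584), and *bath-31* and *bath-10* were also lower (-1.66 and -1.10). *bath-10* was not called with WT input 3 alone. *bath-45*, which had more antisense reads than any other member of the list, had 3851, 4193 and 3545 CPM in 3×FG and 5598, 5097 and 4619 CPM in WT, a difference that did not pass the test (-0.40, adjusted p = 0.152).

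Chemoreceptor genes, which act in sensory neurons, had 3 of 73 (4.11%) called lower in antisense sRNAs and 0 higher by edgeR, a share close to the 3.87% lower of all features antisense to protein-coding genes (34 lower and 4 higher at an unadjusted p under 0.05, 16 lower and 2 higher by DESeq2). Their median was -0.92 with all WT libraries and -0.47 with WT input 3 alone, where 8 were lower and 1 higher, and 1 was lower under either alternative scaling. *sra-35* had 9.20, 10.0 and 13.7 CPM in 3×FG and 62.8, 77.4 and 47.4 CPM in WT (-2.51, SE 0.26, adjusted p = 0.00319), and *srh-87* (-2.93) and *sre-36* (-2.05) were lower at under 11 CPM. On the sense strand 3 of 33 were lower by edgeR, *srh-34*, *srxa-15* and *sru-17*, beside 0.56% of all sense features of protein-coding genes. *srxa-15* had 2.74, 2.49 and 3.60 CPM sense in 3×FG and 21.3, 25.0 and 18.9 CPM in WT (-2.89, adjusted p = 0.00182). Most chemoreceptor genes had too few reads to be tested.

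Other families had calls in both directions. Of 93 nuclear hormone receptor genes, 4 (4.30%) were lower and 4 higher, beside 3.87% lower and 2.49% higher of all features antisense to protein-coding genes (median -0.03, and 0.06 and 0.16 under the alternative scalings). *nhr-1* had 9.27, 6.48 and 7.59 CPM antisense in 3×FG and 51.6, 83.2 and 58.4 CPM in WT (-3.05, adjusted p = 0.00161). *nhr-95* had 48.2, 42.5 and 42.4 CPM in 3×FG and 4.05, 9.59 and 6.68 CPM in WT (2.67, adjusted p = 0.00426). The 4 lower were *nhr-1*, *nhr-85*, *nhr-236* and *nhr-249* and the 4 higher *nhr-95*, *nhr-65*, *nhr-64* and *nhr-47*, of which *nhr-236* was not called with WT input 3 alone and *nhr-47* not with WT inputs 1 and 2 alone. Of 39 C-type lectin genes edgeR called 1 lower and 1 higher. They were *clec-238*, which was lower (4.12, 2.85 and 2.43 CPM antisense in 3×FG, 27.3, 31.3 and 30.9 CPM in WT), and *clec-84*, which was higher (31.8, 32.0 and 32.1 CPM in 3×FG, 11.14, 7.30 and 12.9 CPM in WT).

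Histone genes had 2 of 55 (3.64%) called lower and 0 higher by edgeR, a share of lower calls close to the 3.87% of all features antisense to protein-coding genes (8 lower and 16 higher at an unadjusted p under 0.05, 5 lower and 1 higher by DESeq2), at a median of 0.18. The linker histone gene *hil-3* had 106, 115 and 88.3 CPM antisense in 3×FG and 390, 443 and 353 CPM in WT (-1.94, SE 0.16, adjusted p = 0.00149), and *his-38*, a histone H4 gene, 4.07, 4.13 and 3.84 CPM in 3×FG and 14.7, 14.2 and 14.7 CPM in WT (-1.85). Histone genes occur in near-identical copies, and reads shared between copies are uncertain. Of 80 ribosomal protein genes edgeR called 1 on the antisense strand (8 lower and 9 higher at an unadjusted p under 0.05, 3 lower and 0 higher by DESeq2). This was *rpl-34*, with 15.96, 19.2 and 16.4 CPM in 3×FG and 49.1, 48.8 and 47.9 CPM in WT (-1.50, adjusted p = 0.00215).

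Among tissue genes on the antisense strand, sperm genes had 2 of 52 (3.85%) higher and 0 lower by edgeR. Of all features antisense to protein-coding genes, 2.49% were higher and 3.87% lower. At an unadjusted p under 0.05, 21 sperm genes were higher and 3 lower. DESeq2 called 11 of them higher and 2 lower, beside 630 higher and 1048 lower of all 9990 such features. The median of the sperm genes was 0.69 with all WT libraries, 1.151 with WT input 3 alone and 0.38 with WT inputs 1 and 2 alone. On the sense strand 11 sperm genes were tested. Their summed sense reads, fragments of sperm mRNA, were 30.3, 34.8 and 24.7 CPM in 3×FG and 8.10, 9.80 and 20.3 CPM in WT. The part of sperm number in these values was not tested. Both called genes are in the WT target table only. *spe-6*, a casein kinase gene of spermatogenesis, had 25.9, 27.1 and 33.2 CPM in 3×FG and 9.12, 3.96 and 6.79 CPM in WT (2.15, adjusted p = 0.00968), and *spe-15*, a myosin VI gene, had 39.7, 41.2 and 38.8 CPM in 3×FG and 15.2, 13.3 and 11.99 CPM in WT (1.57, adjusted p = 0.00249). Cuticle collagen and related genes had 2 of 34 (5.88%) higher by edgeR, *col-162* (35.9, 40.5 and 37.1 CPM in 3×FG, 10.6, 13.8 and 14.5 CPM in WT) and *col-60*, and 0 lower (9 higher and 7 lower at an unadjusted p under 0.05, 3 higher and 2 lower by DESeq2). None of 24 oocyte and maternal genes was called on this strand by edgeR or DESeq2 (3 lower and 2 higher at an unadjusted p under 0.05), and none of 5 muscle genes by edgeR, of which 2 were lower at an unadjusted p under 0.05 and by DESeq2. These reads are antisense sRNAs, not mRNA, so they do not measure how much of a tissue was present.

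**Figure D4:**
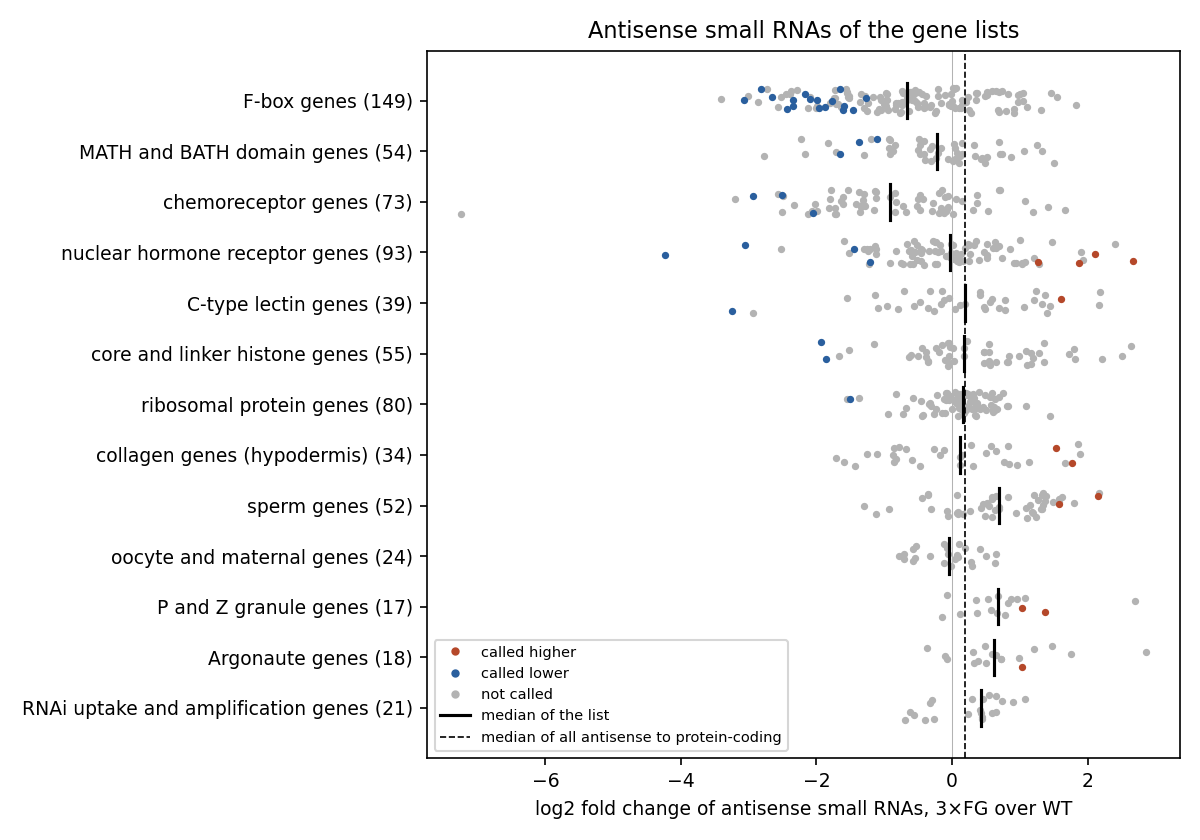
Log2 fold change (3×FG over WT) of antisense sRNAs for the tested members of 13 gene lists (number tested in brackets), with red points called higher, blue points called lower, a vertical bar at each list's median and a dashed line at 0.19, the median of all features antisense to protein-coding genes. The F-box row holds 17 blue points and no red ones and has its median at -0.67, whereas the nuclear hormone receptor row holds 4 of each.

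More repeats were lower in antisense sRNAs than higher. Of 261 repeat features with tested antisense reads, 97 of them simple repeats, 19 (7.28%) were lower and 1 (0.383%) higher. Over all features tested these shares were 2.81% and 1.45%. The median of the repeats was -0.57, and it was -0.26 with WT input 3 alone and -0.91 with WT inputs 1 and 2 alone. LINE2 elements, non-LTR retrotransposons, had 4 of 9 families lower and 1 higher. LINE2A had 168, 173 and 124 CPM in 3×FG and 981, 775 and 694 CPM in WT (-2.40, SE 0.21, adjusted p = 0.00183), and LINE2B had 75.3, 66.6 and 74.3 CPM in 3×FG and 313, 459 and 333 CPM in WT (-2.35). LINE2C (-3.01) and LINE2C1 (-2.84) were lower as well, whereas LINE2E had 94.3, 105 and 90.0 CPM in 3×FG and a mean of 39.7 ± 0.587 CPM in WT (SD, n = 3), with little spread (1.28, SE 0.12, adjusted p = 0.00218). All 5 were called the same way with WT input 3 alone.

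CER elements, LTR retrotransposons, had 5 of 35 features (14.3%) lower and 0 higher by edgeR (1 higher at an unadjusted p under 0.05, 0 by DESeq2). Among all repeats with tested antisense reads 7.28% were lower. The median of the CER features was -0.70, and it was -0.30 with WT input 3 alone. *CER3-1-LTR* had 63.9, 68.8 and 62.3 CPM in 3×FG and 231, 223 and 196 CPM in WT (-1.74, SE 0.12, adjusted p = 0.00107). CER1 had 290, 316 and 327 CPM in 3×FG and 671, 706 and 530 CPM in WT and was not called with WT input 3 alone (-0.76). The other 3, named after their values were seen, were CER10-LTR, CER16-1-LTR and CER11-I. None of 9 Tc DNA transposon families was called by edgeR or DESeq2 (3 lower at an unadjusted p under 0.05), and Tc1 had 2571, 2831 and 2425 CPM in 3×FG and 2612, 2578 and 2017 CPM in WT (0.12, adjusted p = 0.694). NeSL-1, the repeat with most antisense reads, had 10030, 10920 and 9122 CPM in 3×FG and 12360, 11050 and 8137 CPM in WT, which overlapped. On the sense strand 10 of 120 repeats (8.33%) were lower, beside 2.81% of all features tested. The 1 higher repeat was TIR43YW1 (23.3, 22.4 and 19.3 CPM in 3×FG, 6.58, 5.84 and 5.37 CPM in WT, 1.89). Reads of repeats match many copies, and how these reads were assigned is not given in the sources used here.

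Of 184 miRNAs tested edgeR called 3 (1.63%) lower and 0 higher, beside 2.81% lower and 1.45% higher of all features tested. Each of the 3 is a member of the mir-35 family, which is abundant in oocytes and embryos and is needed for embryonic development. DESeq2 called 19 miRNAs lower and 1 higher, of which 5 lower ones were in this family, and 33 miRNAs were lower and 17 higher at an unadjusted p under 0.05 in edgeR. miR-38-3p had 14.2, 8.74 and 10.9 CPM in 3×FG and 57.2, 117 and 73.3 CPM in WT (-2.87, SE 0.33, adjusted p = 0.00491). miR-36-3p had 232, 204 and 191 CPM in 3×FG and 914, 1289 and 633 CPM in WT (-2.17, SE 0.28, adjusted p = 0.00633). miR-42-3p had 12.4, 12.2 and 8.85 CPM in 3×FG and 32.4, 46.9 and 35.04 CPM in WT (-1.77, SE 0.22, adjusted p = 0.00628). None of the 3 overlapped between genotypes, and each was called with WT input 3 alone.

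The other arms of the family did not pass the edgeR test. *mir-35* to *mir-41* lie in one cluster on the plus strand of chromosome II (11537608 to 11538404) and *mir-42* at 11889811 to 11889905 (WBcel235). cel-miR-39-3p had 2594, 1706 and 1470 CPM in 3×FG and 6572, 7638 and 5604 CPM in WT, without overlap, and just missed the threshold (-1.78, SE 0.27, adjusted p = 0.0106). miR-35-3p had 7129, 6076 and 6341 CPM in 3×FG, against 6058 and 7956 CPM in WT inputs 1 and 2 and 22360 CPM in WT input 3. Of 13 arms tested, 12 had a negative fold change, 9 were lower with WT input 3 alone and 5 lower with WT inputs 1 and 2 alone, where 1 was higher. The summed family stood at 13760, 11950 and 10530 CPM in 3×FG and 17890, 23140 and 40320 CPM in WT, so every WT library was above every 3×FG library, by a margin that differed between WT libraries. Sense reads of 22 oocyte and maternal genes, fragments of their mRNAs, summed to 460, 312 and 292 CPM in 3×FG and 19.8, 28.8 and 609 CPM in WT, so WT input 3 was highest in both, and the part of oocyte number in the miRNA values was not tested.

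Abundant miRNAs of other families did not pass the edgeR test. let-7, the developmental timing miRNA, had 2912, 3688 and 2970 CPM in 3×FG and 2772, 2595 and 2671 CPM in WT (0.25, adjusted p = 0.34). The muscle miRNA miR-1-3p had 63300, 64490 and 42560 CPM in 3×FG and 106200, 75230 and 41500 CPM in WT (-0.39, adjusted p = 0.607). miR-58a-3p, of the bantam family, had 26980, 24290 and 9853 CPM in 3×FG and 51770, 55630 and 22810 CPM in WT (-1.09, adjusted p = 0.211), with overlap.

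**Figure D5:**
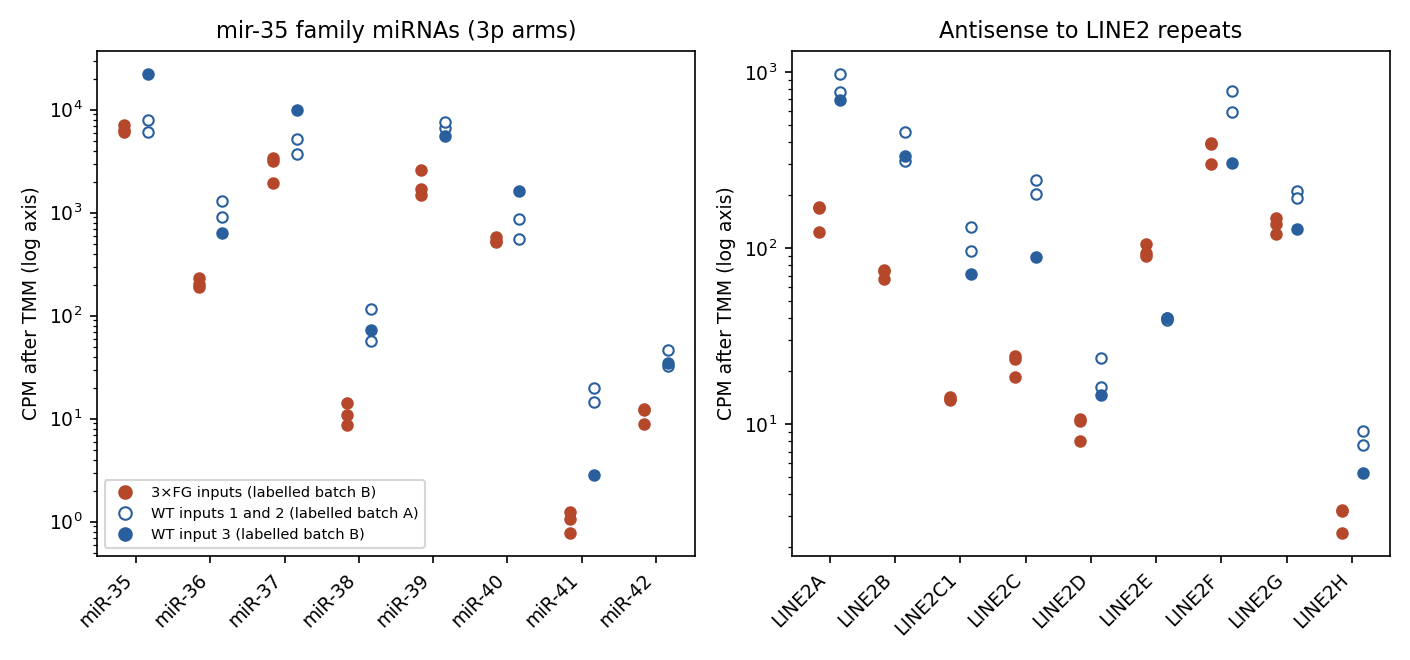
CPM after TMM scaling (log axis) of the 3p arms of the mir-35 family (left) and of reads antisense to LINE2 repeats (right) in each input library, with 3×FG left and WT right for each feature and open circles for WT inputs 1 and 2. For miR-35 the 3×FG inputs lie at 6076 to 7129 CPM and the WT inputs spread between 6058 and 22360 CPM, whereas for LINE2A the 3×FG inputs lie at 124 to 173 CPM, below the WT inputs at 694 to 981 CPM.

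Spliced leader RNA genes accounted for the small nuclear RNA calls. Of 42 tested 13 (30.95%) were lower, beside 2.81% of all features tested. Among the 13, 12 were copies of the SL1 gene on chromosome V, whose product supplies the leader that is trans-spliced to many mRNAs. The other was *sls-2.4*, named after its values were seen. The copy *sls-1.10* (17120694 to 17120791) had 32.6, 29.5 and 52.7 CPM in 3×FG and 129, 192 and 140 CPM in WT (-2.01, SE 0.28, adjusted p = 0.0084). Its counts were identical in 9 other copies, and those of *sls-1.1* and *sls-1.5* were identical to each other, so the 12 copies represent 2 measurements of shared reads at most. Across all features, 298 had the same counts as another feature, and counting these once left 523 lower and 278 higher calls.

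None of 1681 piRNAs was called by edgeR, beside 2.81% lower and 1.45% higher of all features tested. At an unadjusted p under 0.05 in edgeR, 364 were lower and 64 higher. DESeq2 called 130 lower and 6 higher, beside 1685 lower and 727 higher of all 19120 features. The piRNA with the highest mean CPM, 21ur-5622, had 36.01, 35.8 and 60.5 CPM in 3×FG. It had 957 and 464 CPM in WT inputs 1 and 2 and 37.1 CPM in WT input 3 (log2 fold change -3.46). The next, 21ur-5504, had 87.8, 82.4 and 272 CPM in 3×FG. It had 443 and 227 CPM in WT inputs 1 and 2 and 63.0 CPM in WT input 3 (-0.73). With WT inputs 1 and 2 alone 838 piRNAs were lower in 3×FG, beside 3046 of all 19120 features. The median piRNA then stood at -1.57, and with WT input 3 alone it stood at 0.53. Neither tool called any of 21 rRNA features (1 lower and 1 higher at an unadjusted p under 0.05 in edgeR). Of 267 tRNA genes edgeR called 2 (0.749%) higher and 0 lower, beside 1.45% higher and 2.81% lower of all features tested. They were *F18G5.t1* and *F36D4.t1*, of which *F36D4.t1* was named after its values were seen. The other direction prevailed at an unadjusted p under 0.05, with 73 lower and 9 higher, and DESeq2 called 17 lower and 6 higher. The median tRNA gene stood at -1.41 with all WT libraries, -1.60 with WT inputs 1 and 2 alone and 0 with WT input 3 alone.

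On the sense strand of protein-coding genes and pseudogenes, a few loci stood apart from the batch pattern. *puf-4*, annotated as a pseudogene of the PUF family of RNA-binding proteins, had 31.3, 29.9 and 19.6 CPM sense in 3×FG and 452, 386 and 228 CPM in WT (-3.72, SE 0.34, adjusted p = 0.00203). *rpm-1*, a ubiquitin ligase gene of synapse development, had 86.2, 95.3 and 80.9 CPM sense in 3×FG and 1.01, 2.09 and 6.68 CPM in WT (4.52, SE 0.58, adjusted p = 0.00658). Both differed against either set of WT libraries, and *rpm-1* overlaps another annotated gene. Of 41 protein-coding, pseudogene, ncRNA and lincRNA genes called lower on the sense strand, 24 had a tested antisense feature. Of these 24, 1 was lower and 1 higher, beside 3.87% lower and 2.49% higher of all features antisense to protein-coding genes.

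Among the non-coding RNA loci, antisense reads of *Y49E10.37* were 4.36, 4.18 and 4.698 CPM in 3×FG and 118, 110 and 80.2 CPM in WT (-4.54, SE 0.20, adjusted p = 0.000492), and those of *Y48C3A.1*, annotated as a lincRNA, 1.25, 1.23 and 0.861 CPM in 3×FG and 27.3, 23.4 and 19.9 CPM in WT (-4.37). *K06C4.23* was the reverse, with 32.8, 40.4 and 61.2 CPM sense in 3×FG and 7.09, 6.46 and 8.98 CPM in WT (2.56, adjusted p = 0.00463). *K06C4.23* and *Y49E10.37* overlap other annotated genes.

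The genes with most antisense reads outside the target tables were not called by edgeR. *linc-22*, annotated as a lincRNA, had 6548, 8467 and 6264 CPM in 3×FG and 7903, 7412 and 5647 CPM in WT, which overlapped (0.02, adjusted p = 0.96). *linc-29* had 3395, 3422 and 2969 CPM in 3×FG and 8208, 7920 and 5238 CPM in WT, without overlap (-1.13, SE 0.22, adjusted p = 0.0239). Among protein-coding genes, *F02C12.3* had 5374, 5204 and 5908 CPM in 3×FG and 7985, 7899 and 5501 CPM in WT (-0.38, adjusted p = 0.279), and *eri-6*, a helicase gene of the ERGO-1 pathway, had 3181, 3534 and 3387 CPM in 3×FG and 4562, 4300 and 3520 CPM in WT (-0.29, adjusted p = 0.287). *Y71A12B.10* had 3343, 3252 and 2825 CPM in 3×FG and 4601, 5007 and 4117 CPM in WT, with no overlap (-0.54, adjusted p = 0.0734).

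Calls were uneven over the target tables. Features in both tables had 45 lower and 18 higher calls of 4073 tested (1.10% and 0.442%). Features in the WT table only had 6 lower and 52 higher of 758 (6.86% higher), and those in the 3×FG table only had 12 lower of 95 (12.6%) and 1 higher. The tables rest on IP/input ratios, so input values entered the choice of these groups. A published list holds 997 genes targeted by WAGO-4 but not by CSR-1, so it is not the full set of WAGO-4 targets. Of its genes, 168 were tested and in neither table. Of these 168, 11 (6.55%) were lower and 16 (9.52%) higher in antisense sRNAs. Among all 5205 tested features antisense to protein-coding genes in neither table, 6.30% were lower and 3.44% higher.

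Along the chromosomes, the share of lower calls was highest on the X chromosome. Of features antisense to protein-coding genes, 2.97% to 4.30% were lower on each autosome and 6.15% (59 of 959) on the X chromosome, and 2.18% to 2.97% were higher. Of 10668 antisense genes in chromosome order 711 were called, and 45 of the 711 (6.33%) had the next tested gene called the same way. Of all features antisense to protein-coding genes 3.87% were lower and 2.49% higher. There were 3 runs of 3 neighbours, all lower. One joined *fbxb-92*, *fbxb-91* and *T24E12.11* on chromosome II (3746428 to 3779563), one *T24A6.17*, *F40C5.2* and *grl-27* on chromosome V (3564240 to 3575859), and one *ZC53.1*, *rgs-9* and *dot-1.5* on the X chromosome (1910943 to 1919755).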

How the data were processed

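Small RNA was sequenced from lysate of 3 3×FG and 3 WT samples. The labels do not say whether replicates were separate cultures, so p-values measure only the spread between these libraries. The deposited matrix holds raw read counts per gene or repeat and annotation class, made by the authors. The submitters' processing notes name cutadapt 1.15, STAR 2.6.0c and the builds ce11 and ce10 without their roles. The counting rule is not given in the sources used here. Columns of RPM and ratios of the deposited target tables served only to list targets. Of 18553 tested features with a WormBase identifier, 18550 were placed by the WBcel235 annotation.

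Counts with a mean CPM of at least 1 over the 6 libraries were tested with edgeR 4.0.16 (R 4.3.3, TMM, quasi-likelihood) on genotype alone, at an adjusted p of 0.01 and a log2 fold change of 1. Class shares were compared by exact permutation. Scripts were tested on simulated data. Alternatives were DESeq2 1.42.0, other scalings and filters, batch, the replicate block and each library left out. One read is worth 0.0135 to 0.0783 CPM in 3×FG and 0.0548 to 0.506 CPM in WT.

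Named features were the 8 lowest and 8 highest called features in neither table with a mean CPM of at least 5, no overlap and one sign with batch as a term and with WT input 3 alone; the 2 largest changes in each direction of each other class; the 5 features with most reads antisense to genes, and the 5 antisense to protein-coding genes, in neither table, repeats left out; the edited genes and *wago-4*; and called or abundant members of 22 lists. Members, lists and rules were chosen with earlier results of these data known.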

Additional observations from a re-analysis of the deposited data

How the results depend on the processing

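Numbers of calls are given as lower and higher in all features, then lower and higher in neither table. There were 1685, 727, 1418 and 583 with DESeq2, 832, 763, 740 and 680 with batch B libraries only, and 812, 594, 723 and 516 with batch as a term. Without a low-count filter 433 features were higher. Over the 6 fits that each left out one library, calls ran from 0 to 3046, 3 to 3255, 0 to 2686 and 2 to 3077, with the highest counts when WT replicate 3 was left out, and 3907 to 11059 features had an unadjusted p under 0.05. All 537 lower and 246 of the 278 higher calls were among those made without WT replicate 3. The replicate block gave 0 calls in all 4 counts, with 5122 features at an unadjusted p under 0.05 in edgeR. The block used the replicate numbers of the sample titles. Libraries with the same title number did not deviate together (correlations of -0.31, -0.03 and -0.27), and these samples share only a number. The library names carry a further number, shared among the inputs only by 3×FG input 1 and WT input 3, whose deviations correlated at 0.39. The block did not use it, and whether it marks a pair is not stated. The causes of these changes were not tested.

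No named feature reversed its sign where it was called. Of the 156 named features, the calls lost were 89, 85 and 87 without 3×FG replicate 1, 2 or 3, 66, 80 and 2 without WT replicate 1, 2 or 3, and 90 under the replicate block, which is every named call. With libraries scaled by totals 12 were lost, by totals without rRNA 20, without a low-count filter 11, with batch B libraries only 5, and 1 each with DESeq2, batch as a term and a mean CPM of at least 5. Gains were 24 without WT replicate 3 and at most 3 elsewhere. With batch B libraries only, 23 features that were not called changed sign.

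Class shares (3×FG minus WT, percentage points) changed with WT input 3 alone to 3.33 antisense to protein-coding genes, 1.77 for miRNAs, -3.49 for rRNA, 0.389 antisense to repeats, -1.04 antisense to pseudogenes, -0.743 for sense protein-coding reads, -0.173 antisense to lincRNAs, 0.329 for piRNAs, 0.0121 for ncRNAs, -0.0637 for pseudogenes and -0.0458 for sense repeats. Without rRNA reads they were 3.67 antisense to protein-coding genes and -0.203 antisense to ncRNAs, which came to -0.237 when reads of no feature were kept. At the depth of WT input 1 a feature with 3 reads stands at 1.52 CPM, so decreases below that level rest on the other WT libraries.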
